A study of Mus musculus with 8 samples.

Results

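The 38 genes described here are markers and enzymes of brown and white fat, the tissue that surrounds the aorta. They were picked by symbol from genes known to act in fat, and all 38 were found among the 24411 rows of the count table. There were 3 Control and 5 caIKK2EC libraries of whole mouse aorta, each labelled with 1 sex and 1 age. That each came from a single animal is not stated, so p-values measure only the spread between these samples. All mice lacked apolipoprotein E (ApoE(-/-)) and carried the transgene caIKK2(+/+), a constitutively active IKK2 with a linked EGFP behind a loxP-flanked stop cassette. IKK2 switches on NF-κB, a transcription factor of inflammation. The caIKK2EC mice also carried BMXCreERT2(+/-), a tamoxifen-inducible Cre recombinase expressed in arterial endothelial cells, and the Control mice were Cre-negative littermates (BMXCreERT2(-/-)). Both groups received tamoxifen by injection on 5 days (1 mg per 20 g of body weight) and a Western-type diet for 12 weeks. Whether the transgene was switched on at an early or a late stage of disease here is not stated in the labels. Control 1 and 2 and caIKK2EC 1 and 3 were 18 weeks old and the other 4 were 19 weeks old. Control 3 was male and the other 7 were female.

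Perivascular fat of the mouse thoracic aorta resembles brown fat, and fat around the abdominal aorta is more like white fat. Brown adipocytes burn fatty acids in mitochondria that are uncoupled by UCP1, whereas white adipocytes store triglyceride in 1 large droplet and secrete hormones such as adiponectin and leptin. Both types need the nuclear receptor PPARγ, coat their droplets with perilipins, and release fatty acids through a cascade of lipases that catecholamines switch on. How much of this fat stays on a dissected aorta depends on the dissection, and the labels name the sample only as aorta.

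Library totals lay between 23461655 and 30808502 counts. The deposited column names place the 3 Controls and caIKK2EC 1 in sequencing lane 7 and caIKK2EC 2 to 5 in lane 8. Lane 8 therefore holds no Control, and lane and genotype can be told apart only through caIKK2EC 1. Levels are given as CPM, which are counts scaled to the library total and to edgeR's TMM factors. The tissue label was checked against markers: smooth muscle markers such as Acta2, the smooth muscle actin gene, were abundant in every library (summed level 10516 to 38380 CPM), and the adipocyte gene Adipoq was present in every library too (49.5 to 279 CPM). The 10 adipocyte genes outside the set, such as Cfd, summed to 480.4 to 1378 CPM. The 14 markers of striated muscle stood apart in 2 libraries and summed to 2722 CPM in Control 1 and 1355 CPM in caIKK2EC 1, against 71.6 to 159 CPM in the other 6. The heart myosin gene Myh6 was the most abundant of them, and the skeletal muscle myosin gene Myh4 had 0 counts in all 8 libraries.

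The upstream sequences of 4 members are shown because they carry the short sequences by which fat genes are usually described. These are the core site AGGTCA of nuclear receptors such as PPARγ, the C/EBP sequence TTGCNCAA, and the cyclic AMP response element TGACGTCA. Capitals mark these 3 motifs on either strand. Each run is the 250 bases before the RefSeq start site on GRCm38.p6, written 5′ to 3′ along the gene's own strand. Ucp1 (chr8:83290098-83290347, plus strand) has AGGTCA starting 14 bases before the start site. Plin1 (chr7:79732777-79733026, minus strand) has TTGCCCAA 58 bases before it. Lep (chr6:29059971-29060220, plus strand) has TTGCGCAA 55 bases before it. Dio2 (chr12:90739039-90739288, minus strand), whose enzyme activates thyroid hormone and whose gene is known for its induction by cyclic AMP, has TGACGTCA 95 bases before it.
Ucp1: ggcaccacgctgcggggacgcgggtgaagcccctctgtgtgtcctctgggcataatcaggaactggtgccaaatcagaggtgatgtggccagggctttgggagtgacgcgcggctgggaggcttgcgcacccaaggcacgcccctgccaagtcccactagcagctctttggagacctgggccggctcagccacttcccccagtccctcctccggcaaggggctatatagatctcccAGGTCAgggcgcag
Plin1: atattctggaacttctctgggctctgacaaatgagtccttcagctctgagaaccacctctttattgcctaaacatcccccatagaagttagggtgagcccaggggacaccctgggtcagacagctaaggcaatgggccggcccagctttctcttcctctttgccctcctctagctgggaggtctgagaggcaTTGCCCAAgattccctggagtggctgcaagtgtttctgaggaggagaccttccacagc
Lep: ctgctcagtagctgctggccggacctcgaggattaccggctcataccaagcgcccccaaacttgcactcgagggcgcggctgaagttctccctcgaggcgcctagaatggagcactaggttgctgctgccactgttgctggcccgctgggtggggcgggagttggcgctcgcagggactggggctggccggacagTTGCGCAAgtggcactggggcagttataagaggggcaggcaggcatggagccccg
Dio2: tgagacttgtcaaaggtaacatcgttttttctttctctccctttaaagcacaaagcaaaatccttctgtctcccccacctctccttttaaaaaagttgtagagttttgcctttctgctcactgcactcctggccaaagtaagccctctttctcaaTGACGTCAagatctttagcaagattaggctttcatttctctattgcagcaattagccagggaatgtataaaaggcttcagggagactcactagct
Of the 38 members, 26 matched a RefSeq promoter entry, with 34 promoters in all. The first motif was present in 7 of the 34 member promoters and in 14.0% of all 32851 promoters of the same length. These 7 belong to 5 of the 26 genes (Aqp7, Pparg, Ucp1, Acly and Plin5). The direct repeat of this core site with 1 base between, as PPARγ binds it, was found in 0 of the 34 and in 0.0335% of all promoters. TTGCNCAA was present in 3 of the 34 (Lep, Cidec and Plin1) against 2.61% of all promoters, and TGACGTCA in 1, of Dio2, against 1.55%. These 4 are among 16 letter patterns searched on both strands after the values were known, and a match describes the letters only.

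The amount of fat RNA differed more between single libraries than between the groups. The 38 members together took 1.20%, 1.46% and 1.12% of all counts in Control 1 to 3. In caIKK2EC 1 to 5 they took 2.24%, 0.505%, 0.916%, 0.737% and 1.06%. caIKK2EC 1 thus held the largest share of the 8 libraries and caIKK2EC 2 the smallest, while the Controls lay close together. In bulk tissue, fewer adipocytes and less RNA per adipocyte cannot be told apart. After a filter on low counts 37 members were tested, all except Elovl3. Of these 37, 27 were higher in caIKK2EC 1 than in every Control, where 28.6% of all 14679 genes tested were. In caIKK2EC 2, 33 of the 37 were below every Control, against 22.8% of all genes tested. caIKK2EC 3, 4 and 5 had 27, 31 and 22 members below every Control, where 27.9%, 27.6% and 25.7% of all genes were. They had 2, 0 and 2 members above every Control, against 26.7%, 27% and 26% of all genes. The median member differed from the Control mean by 0.69 on the log2 scale in caIKK2EC 1, by -1.68 in caIKK2EC 2, and by -0.66, -0.99 and -0.51 in caIKK2EC 3 to 5.

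**Figure D1:**
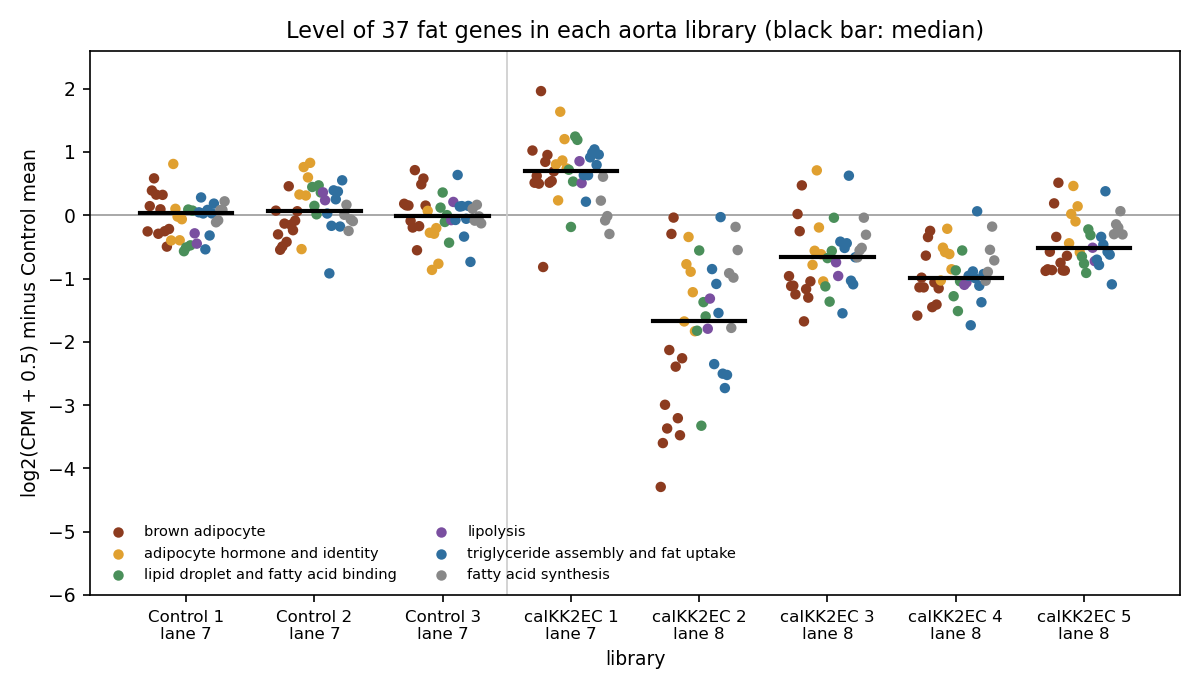
Level of the 37 tested fat genes in each library (x axis, with its sequencing lane) as log2(CPM + 0.5) minus the mean of the 3 Controls (y axis, log2 scale). Each point is 1 gene, coloured by role, and the black bar is the median: 0.69 in caIKK2EC 1 and -1.68 in caIKK2EC 2. Ucp1 is lowest in the latter. The droplet gene Plin5 is also low there, and the brown adipocyte genes Prdm16 and Dio2 lie within the Control range.

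Marker sums of other cell types ordered the libraries differently. Smooth muscle markers summed to 19158 to 38380 CPM in Controls and 10516 to 21692 CPM in caIKK2EC libraries. The library with the most fat RNA, caIKK2EC 1, had the lowest smooth muscle sum. Macrophage markers summed to 2143 to 7172 CPM in Controls and 8723 to 12229 CPM in caIKK2EC, with no overlap between the groups. The sum of fibroblast and preadipocyte markers did not overlap either, at 6015 to 8047 CPM in Controls and 8174 to 10048 CPM in caIKK2EC. Of its 8 genes only Lum had no overlap, where 7.01% of all genes tested were higher without overlap. Pi16 and Dlk1 had fitted log2 fold changes below 0 (-0.17 and -1.06), and the other 6 had values above 0. Endothelial markers summed to 1509 to 2970 CPM in Controls and 2481 to 3149 CPM in caIKK2EC. B cell markers stayed at 2.95 to 11.9 CPM in sum in all libraries. The part of these differences in cell makeup in the levels of fat genes was not tested.

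**Figure D2:**
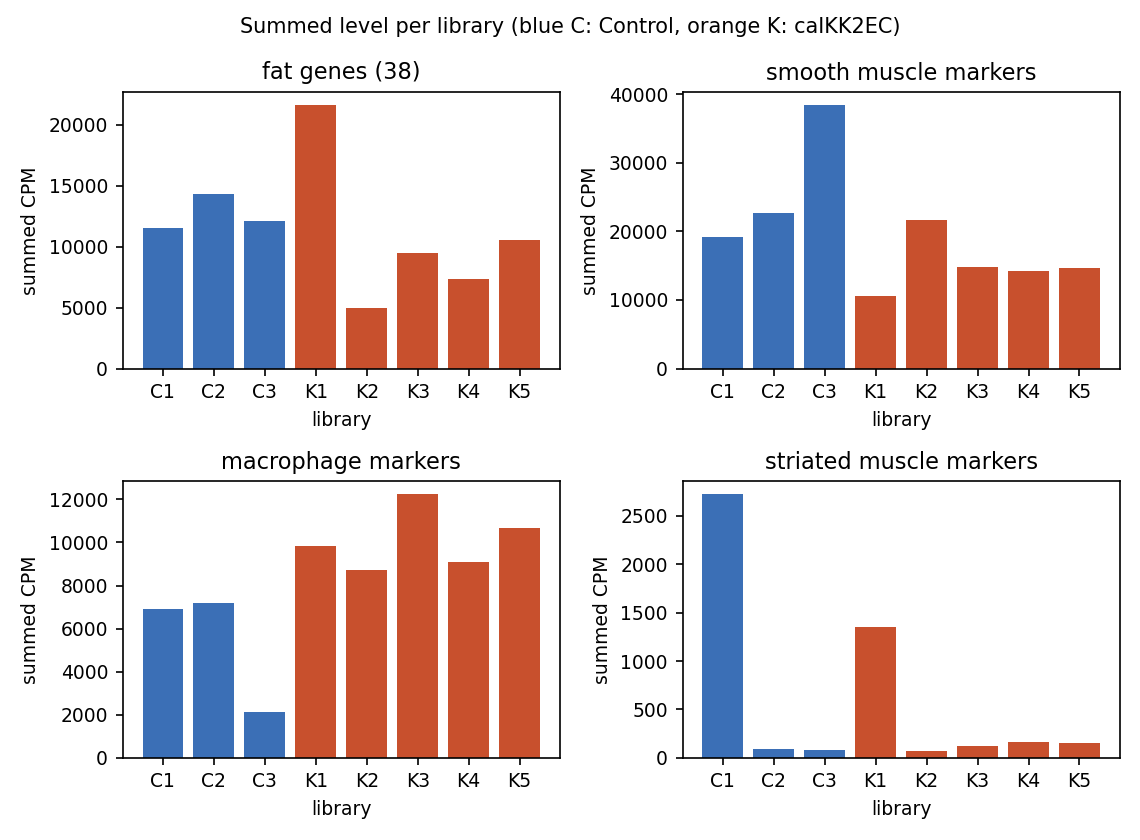
Summed CPM (y axis) of the 38 fat genes and of the smooth muscle, macrophage and striated muscle markers in each library (x axis, C for Control and K for caIKK2EC, 1 bar per library). Fat genes are highest in K1 and lowest in K2, and striated muscle markers are high in C1 (2722 CPM) and K1 (1355 CPM) alone.

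The comparison of caIKK2EC with Control asks whether sustained NF-κB activity in arterial endothelium goes with a change in these genes in the whole aorta. No member passed the quasi-likelihood test of edgeR at a Benjamini-Hochberg adjusted p of 0.05, where 0% of all genes tested did (lowest adjusted p among members 0.163, for Me1). DESeq2 called 0 members as well, where it called 4.49% of all genes higher and 1.47% lower. With age as a covariate edgeR called 0 members, where it called 2.77% of all genes higher and 1.73% lower. At an unadjusted p under 0.05, 3 members were lower (Me1, Plin4 and Acaca) and 0 higher, against 7.47% and 9.66% of all genes tested. DESeq2 had 3 members lower at that level, where 8.19% of all genes were. The fitted log2 fold change was below 0 in 33 of 37 members, where 52.6% of all genes had such a value. Its median was -0.46, against -0.02 over all genes. The groups did not overlap in 1 member, Me1, lower in caIKK2EC, where 3.22% of all genes tested were lower without overlap. In 0 members were all caIKK2EC libraries above all Controls, where 7.01% of all genes were. In the authors' deposited table the members with the lowest adjusted p were Me1 (log2 fold change -0.43, adjusted p = 0.0715) and Plin4 (-0.64, adjusted p = 0.0737).

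The sign of the median differed between caIKK2EC 1, a single library in lane 7, and caIKK2EC 2 to 5 in lane 8. Both were set against the Controls, which are all in lane 7. Within lane 7, caIKK2EC 1 was above the Control mean in 32 of 37 members, with a median difference of 0.69. Adding lane to the model, which assumes that caIKK2EC 1 varies like the rest, gave a median of 0.64 and unadjusted p-values under 0.05 for 9 members higher and 1 lower, where 5.33% of all genes were higher and 6.81% lower. No member passed in that fit after adjustment. Without caIKK2EC 1 the median was -0.84, and 26 members were lower at an unadjusted p under 0.05, against 8.56% of all genes. None of these passed after adjustment either (lowest edgeR adjusted p = 0.101). All 4 lane 8 libraries lay below all 4 lane 7 libraries in 21 of 37 members, where 4.41% of all genes tested did so. The reverse order was found in 0 members and in 2.3% of all genes. The lane and the genotype of caIKK2EC 2 to 5 cannot be told apart.

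**Figure D3:**
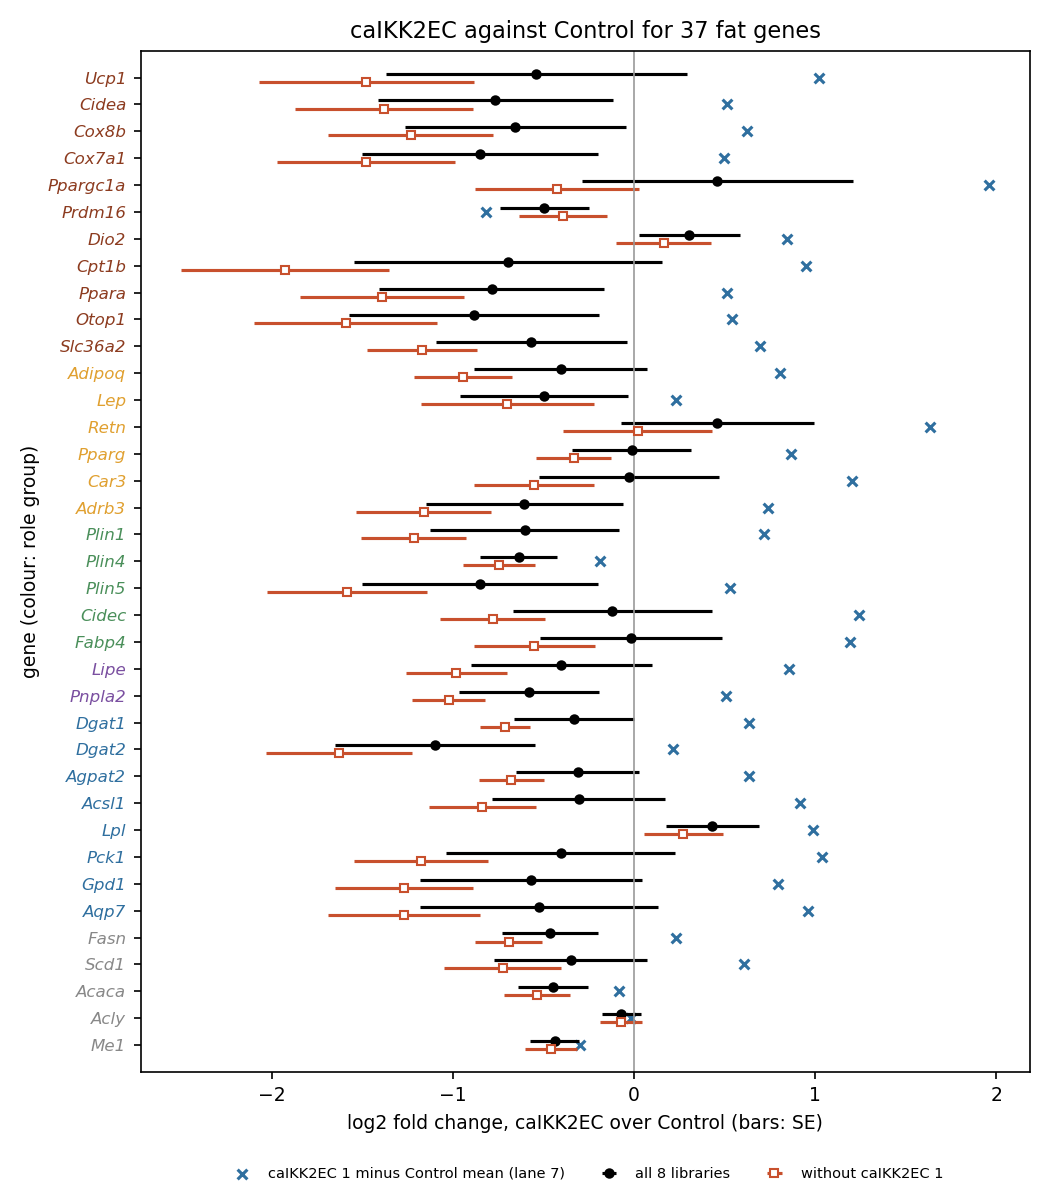
Log2 fold change of caIKK2EC over Control (x axis) for the 37 tested members (y axis, coloured by role). Filled circles show all 8 libraries, open squares the fit without caIKK2EC 1 (bars: SE), and crosses caIKK2EC 1 minus the Control mean within lane 7, which is above 0 in 32 of 37 members.

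The 2 members with the widest spread, Ucp1 and Cpt1b, belong to the brown adipocyte genes. Ucp1 (chromosome 8, 83290352 to 83298452, plus strand, GRCm38), which encodes the uncoupling protein that makes heat in brown fat, was at 623, 782 and 844 CPM in Control 1 to 3. In caIKK2EC 1 to 5 it was at 1512, 37.5, 382, 247 and 404 CPM. The highest library thus held 40.4 times the level of the lowest, and the groups overlapped only through caIKK2EC 1, which lay above all Controls while the other 4 lay below. Controls averaged 749.7 ± 114 CPM (SD, n = 3), and caIKK2EC libraries averaged 517 ± 575 CPM (SD, n = 5). The log2 fold change was -0.54 (SE 0.83, adjusted p 0.790 by edgeR), with an exact two-sided permutation p of 0.339. It was -1.48 (SE 0.59, adjusted p 0.241 by edgeR) without caIKK2EC 1, and the difference within lane 7 was 1.02. Per kilobase of all annotated exons, Ucp1 (369 CPM per kb over all libraries) was second among the 38 members to Scd1 (545). These ranks depend on the annotation. For Fabp4 (276 CPM per kb) the annotated exons together cover the whole gene, 4489 bases, which lowers its value.

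Cidea, a droplet protein of brown fat, followed the same order at the ends. It was at 219.7, 161 and 222 CPM in Controls and 284, 15.9, 91.2, 89.9 and 109.7 CPM in caIKK2EC libraries, a log2 fold change of -0.76 (SE 0.65, adjusted p 0.588 by edgeR). Cox8b and Cox7a1, subunits of cytochrome c oxidase in brown fat and striated muscle, had log2 fold changes of -0.65 and -0.85. Cox7a1 was at 72.5, 34.1 and 45.3 CPM in Controls and 68.4, 4.21, 20.0, 21.6 and 26.2 CPM in caIKK2EC libraries. Its highest values were in Control 1 and caIKK2EC 1, the 2 libraries with most striated muscle transcripts, and their part in these levels was not tested. Cpt1b, the carnitine palmitoyltransferase of muscle and brown fat mitochondria, was at 3.89, 2.66 and 2.61 CPM and 6.29, 0.169, 0.598, 0.783 and 1.58 CPM. It was lowest in caIKK2EC 2, with 4 counts, and highest in caIKK2EC 1, followed by Control 1. Cox8b and Ppargc1a also had their highest values in caIKK2EC 1 and then Control 1. The part of striated muscle in these 3 genes was not tested either.

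Ppara, the receptor that drives fatty acid oxidation, was at 45.5, 46.0 and 76.4 CPM in Controls and at 77.8, 5.44, 23.9, 25.8 and 29.5 CPM in caIKK2EC libraries. Otop1, which encodes a proton channel, was at 23.7, 31.7 and 50.6 and 49.2, 2.57, 13.4, 12.4 and 18.1 CPM. The amino acid transporter gene Slc36a2, a marker of brown adipocyte surfaces, was at 86.6, 105 and 112 and 163, 20.6, 48.6, 45.0 and 64.5 CPM. All 3 had caIKK2EC 2 to 5 below every Control, and for none of them did the groups separate, because of caIKK2EC 1. Their log2 fold changes were -0.78, -0.88 and -0.57, with adjusted p-values from edgeR of 0.558, 0.552 and 0.626. Elovl3, a fatty acid elongase of cold-exposed brown fat, was near the limit of detection, with 5, 3 and 30 counts in Controls and 30, 0, 4, 8 and 8 in caIKK2EC libraries. It did not pass the filter, and a count of 0 allows up to 3 counts.

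The remaining 3 brown adipocyte genes, Prdm16, Ppargc1a and Dio2, are described because of their values. Prdm16 (chromosome 4, 154316125 to 154636873, minus strand), a transcriptional regulator that specifies brown and beige adipocytes, was at 54.7, 50.03 and 110.4 CPM in Controls and 37.9, 54.6, 56.3, 52.8 and 52.9 CPM in caIKK2EC libraries. Its lowest value was in caIKK2EC 1, the library with the most Ucp1, and its highest in Control 3. These 2 libraries were also the lowest and the highest in summed smooth muscle markers (10516 and 38380 CPM). The part of smooth muscle in the level of Prdm16 was not tested. The log2 fold change of Prdm16 was -0.49 (SE 0.25, adjusted p 0.339 by edgeR). Ppargc1a, the coactivator PGC-1α of mitochondrial biogenesis, was at 23.0, 16.6 and 15.9 CPM and 72.7, 3.79, 18.5, 11.6 and 20.9 CPM, highest in caIKK2EC 1 and lowest in caIKK2EC 2 like Ucp1. Its log2 fold change was 0.46, and -0.43 without caIKK2EC 1. Dio2 was at 120.0, 155 and 76.4 CPM in Controls and 202, 109.5, 156, 94.6 and 161 CPM in caIKK2EC libraries, a log2 fold change of 0.31 (SE 0.28, adjusted p 0.617 by edgeR). In caIKK2EC 2, where Ucp1 was at its lowest, Dio2 lay within the range of the Controls.

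Adipocyte identity was read from the hormone genes and their regulators. Adipoq (chromosome 16, 23146536 to 23158028, plus strand), which encodes adiponectin and is made by brown and white adipocytes alike, was at 121, 200.3 and 167 CPM in Control 1 to 3. It was at 279, 49.5, 92.4, 77.8 and 117 CPM in caIKK2EC 1 to 5. caIKK2EC 1 was above every Control and caIKK2EC 2 to 5 below. The log2 fold change was -0.40 (SE 0.48, adjusted p 0.714 by edgeR), and -0.94 (SE 0.27, adjusted p 0.135 by edgeR) without caIKK2EC 1. Lep (chromosome 6, 29060220 to 29073877, plus strand), the gene of leptin, which white adipocytes secrete in proportion to fat stores, was low in all libraries, at 3.78, 1.18 and 1.51 CPM in Controls and 2.37, 0.927, 1.15, 1.21 and 1.97 CPM in caIKK2EC. Its log2 fold change was -0.50 (SE 0.46, adjusted p 0.623 by edgeR), and the groups overlapped. Per kilobase Lep (0.526 CPM per kb) was far below Ucp1 and Adipoq (99.98).

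Retn, which encodes resistin, a hormone of mouse white adipocytes, was at 22.8, 36.3 and 11.4 CPM in Controls and 66.9, 16.6, 35.0, 14.0 and 29.4 CPM in caIKK2EC libraries. It had, with Ppargc1a, the highest fitted log2 fold change of the set, 0.46 (SE 0.53, adjusted p 0.707 by edgeR), and 0.02 without caIKK2EC 1. Car3, a carbonic anhydrase abundant in adipocytes, was at 488, 971 and 557 and 1478, 276, 419, 419 and 708 CPM, and its log2 fold change was -0.03 (SE 0.50, adjusted p 0.988 by edgeR). For Pparg, the receptor that directs adipocyte formation, the levels were 44.0, 55.6 and 36.4 and 81.9, 23.8, 39.0, 38.5 and 41.8 CPM. The groups overlapped in Pparg, and its log2 fold change was -0.01 (SE 0.33, adjusted p 0.993 by edgeR). Adrb3, the β3 adrenergic receptor that starts lipolysis, was at 59.4, 111 and 36.3 CPM in Controls, with Control 2 highest, and at 104, 17.1, 29.8, 34.1 and 41.2 CPM in caIKK2EC. The 6 genes of this role had a median of -0.21.

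Among the droplet proteins, Plin1 and Plin5 had the highest level in caIKK2EC 1 and the lowest in caIKK2EC 2, and Plin4 did not. Plin1 (chromosome 7, 79720218 to 79732903, minus strand), the perilipin that guards the droplet surface of adipocytes, was at 99.0, 201 and 160.0 CPM in Controls and 243, 41.2, 67.2, 60.3 and 93.4 CPM in caIKK2EC libraries. caIKK2EC 1 was above every Control and the other 4 below, and the log2 fold change was -0.60 (SE 0.52, adjusted p 0.597 by edgeR). Plin5, the perilipin of oxidative tissues, was at 30.04, 28.5 and 26.1 and 41.0, 2.36, 10.6, 9.54 and 14.7 CPM, with a spread of 17.4 times between the highest and the lowest library. Plin4 (chromosome 17, 56100591 to 56109803, minus strand), a perilipin of nascent droplets, was at 268, 423 and 490.2 CPM in Controls and 336, 259.5, 239, 209 and 225 CPM in caIKK2EC libraries. Here caIKK2EC 1 lay below the highest 2 Controls, and all 5 caIKK2EC libraries lay below these 2. The log2 fold change of Plin4 was -0.64 (SE 0.21, adjusted p 0.185 by edgeR), with an exact permutation p of 0.0536 and an unadjusted p of 0.0135, and it was -0.75 without caIKK2EC 1.

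Fabp4 (chromosome 3, 10204088 to 10208576, minus strand), the fatty acid binding protein of adipocytes that macrophages and endothelial cells also make, was at 1282, 1563 and 902 CPM and 2782, 402, 1185, 828 and 979 CPM. The groups overlapped and the log2 fold change was -0.02 (SE 0.50, adjusted p 0.994 by edgeR). Cidec, which fuses droplets in white adipocytes, was at 98.2, 189.9 and 137 and 325, 52.5, 92.3, 66.1 and 117 CPM, a log2 fold change of -0.12. Both were below 0 over all libraries and above 0 within lane 7, at 1.19 and 1.24.

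The set holds 2 lipases of stored fat. Pnpla2 (chromosome 7, 141455198 to 141460743, plus strand), which encodes the first lipase of triglyceride breakdown, was at 382, 615 and 603 CPM in Controls and 742, 209, 268, 249.7 and 315.3 CPM in caIKK2EC libraries. Lipe (chromosome 7, 25379527 to 25398710, minus strand), the gene of hormone-sensitive lipase, was at 197, 308 and 227 and 434, 68.8, 143, 112 and 168 CPM. In both, caIKK2EC 1 was the highest library and caIKK2EC 2 the lowest. The log2 fold changes were -0.58 (SE 0.39, adjusted p 0.477 by edgeR) for Pnpla2 and -0.40 (SE 0.50, adjusted p 0.733 by edgeR) for Lipe.

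Genes of triglyceride assembly and fat uptake had fitted values below 0 in 7 of 8, the exception being Lpl. Dgat2 (chromosome 7, 99153658 to 99182719, minus strand), which makes triglyceride from newly made fatty acids, was at 227, 98.7 and 291 CPM in Controls and 217, 36.2, 63.6, 55.7 and 108 CPM in caIKK2EC libraries. It had the lowest fitted log2 fold change of the set, -1.10 (SE 0.55, adjusted p 0.346 by edgeR), although caIKK2EC 1 and 5 lay above the lowest Control. Dgat1 and Agpat2, which act in the same pathway, had log2 fold changes of -0.33 and -0.31. Acsl1, which activates fatty acids with coenzyme A, was at 375, 716 and 602 and 1028, 187, 401, 274 and 395 CPM, a log2 fold change of -0.31 (SE 0.48, adjusted p 0.791 by edgeR). For Pck1 and Gpd1, which supply the glycerol backbone, the Controls were at 439, 711 and 527 CPM and at 520.4, 450.5 and 565 CPM. In caIKK2EC 1 to 5 Pck1 was at 1129, 96.3, 267, 253 and 367 CPM and Gpd1 at 885, 76.3, 239, 196 and 331 CPM, so caIKK2EC 1 lay above and caIKK2EC 2 to 5 below in both genes. Aqp7, the glycerol channel, was at 34.2, 44.2 and 17.8 CPM in Controls and 58.8, 4.80, 18.7, 15.5 and 13.8 CPM in caIKK2EC libraries.

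Lpl (chromosome 8, 68880491 to 68907448, plus strand), the lipoprotein lipase that frees fatty acids from circulating triglyceride and is made by adipocytes and macrophages, had a fitted value above 0. It was at 1521, 1709 and 1135 CPM in Controls and 2845, 1406, 2213, 1498 and 1866 CPM in caIKK2EC libraries. caIKK2EC 1, 3 and 5 lay above every Control, and caIKK2EC 2 and 4 lay within their range. The log2 fold change was 0.43 (SE 0.25, adjusted p 0.416 by edgeR), 0.27 without caIKK2EC 1 and 0.99 within lane 7. Summed macrophage markers were higher in every caIKK2EC library than in every Control, and their part in the level of Lpl was not tested.

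All 5 fatty acid synthesis genes had fitted values below 0, with a median of -0.44, and their median within lane 7 was -0.01. Fasn (chromosome 11, 120805846 to 120824547, minus strand), the fatty acid synthase gene, was at 472, 513 and 548 CPM in Controls and 599, 270.1, 321, 249 and 414 CPM in caIKK2EC libraries, with caIKK2EC 2 to 5 below every Control. Its log2 fold change was -0.46 (SE 0.26, adjusted p 0.404 by edgeR). Scd1 (chromosome 19, 44394455 to 44407879, minus strand), the desaturase that makes oleate, had the highest mean CPM of the members (2666 over all libraries). It was at 2902, 3442 and 2893 and 4681, 893, 2089, 1650.4 and 2779 CPM, a log2 fold change of -0.35 (SE 0.42, adjusted p 0.719 by edgeR). Me1 (chromosome 9, 86581371 to 86695953, minus strand), the malic enzyme that supplies NADPH for this synthesis, was at 92.0, 74.0 and 72.2 CPM in Controls and 64.2, 53.8, 63.7, 47.9 and 63.9 CPM in caIKK2EC libraries. Every caIKK2EC library lay below every Control, caIKK2EC 1 included. Controls averaged 79.4 ± 11.0 CPM (SD, n = 3), and caIKK2EC libraries averaged 58.7 ± 7.46 CPM (SD, n = 5). Me1 had a fitted value of -0.44 (SE 0.13, adjusted p 0.163 by edgeR) and an exact two-sided permutation p of 0.0179, the smallest that 3 against 5 allows. Within lane 7 the difference was -0.30.

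Acaca, the rate-limiting carboxylase, was at 61.4, 48.7 and 65.1 CPM in Controls and 54.7, 29.0, 40.4, 39.5 and 50.6 CPM in caIKK2EC libraries, where caIKK2EC 1 and 5 reached the Control range. Its log2 fold change was -0.45 (SE 0.19, adjusted p 0.281 by edgeR). Acly, which makes cytosolic acetyl-CoA in many cell types, was the most even member, at 181, 163 and 169 and 169, 150.4, 166, 151 and 179 CPM. The highest library of Acly held 1.20 times the level of the lowest, and its log2 fold change was -0.07 (SE 0.11, adjusted p 0.791 by edgeR). In 35 of 37 members that spread was at least 2 times, where 43% of all genes tested had one as wide. In 24 it was at least 5 times, against 10.8% of all genes.

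Members were set against Adipoq across the 8 libraries to describe how far they move with the general adipocyte signal. Ucp1 correlated with Adipoq (Pearson r = 0.932, exact permutation p = 7.44e-05, Benjamini-Hochberg adjusted over 6 relations 0.000446; Spearman rho = 0.976, exact permutation p = 0.000397, adjusted 0.00238). Fasn did too (r = 0.919, exact permutation p = 0.000967, adjusted 0.0029; rho = 0.952, exact permutation p = 0.00114, adjusted 0.00342). caIKK2EC 1 and 2 were the libraries farthest from the Adipoq median. Leaving them out kept the 3 Controls of lane 7 and caIKK2EC 3 to 5 of lane 8. A step between groups or lanes therefore enters any r over these 6 libraries. Without caIKK2EC 1 and 2, r was 0.931 for Ucp1 and 0.917 for Fasn. Lep (r = 0.448, exact permutation p = 0.269, adjusted 0.465; rho = 0.571, exact permutation p = 0.151, adjusted 0.302) did not pass, and its r was 0.03 without these 2 libraries. Lpl (r = 0.412, exact permutation p = 0.310, adjusted 0.465; rho = 0.381, exact permutation p = 0.360, adjusted 0.540) did not pass either and had an r of -0.36 without them.

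Smooth muscle markers had an r of -0.06 with Adipoq (exact permutation p = 0.894, adjusted 0.894; rho = 0.05, exact permutation p = 0.935, adjusted 0.935), and 0.76 without the same 2 libraries. Macrophage markers had an r of -0.27 (exact permutation p = 0.507, adjusted 0.608; rho = -0.26, exact permutation p = 0.536, adjusted 0.644), and -0.59 without them. Genes of 1 library share its depth and composition. Each lane holds 4 libraries, too few for a correlation of its own. The permutations ignored lane and group, and in Adipoq, Ucp1 and Fasn all lane 8 libraries lay below all lane 7 libraries.

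**Figure D4:**
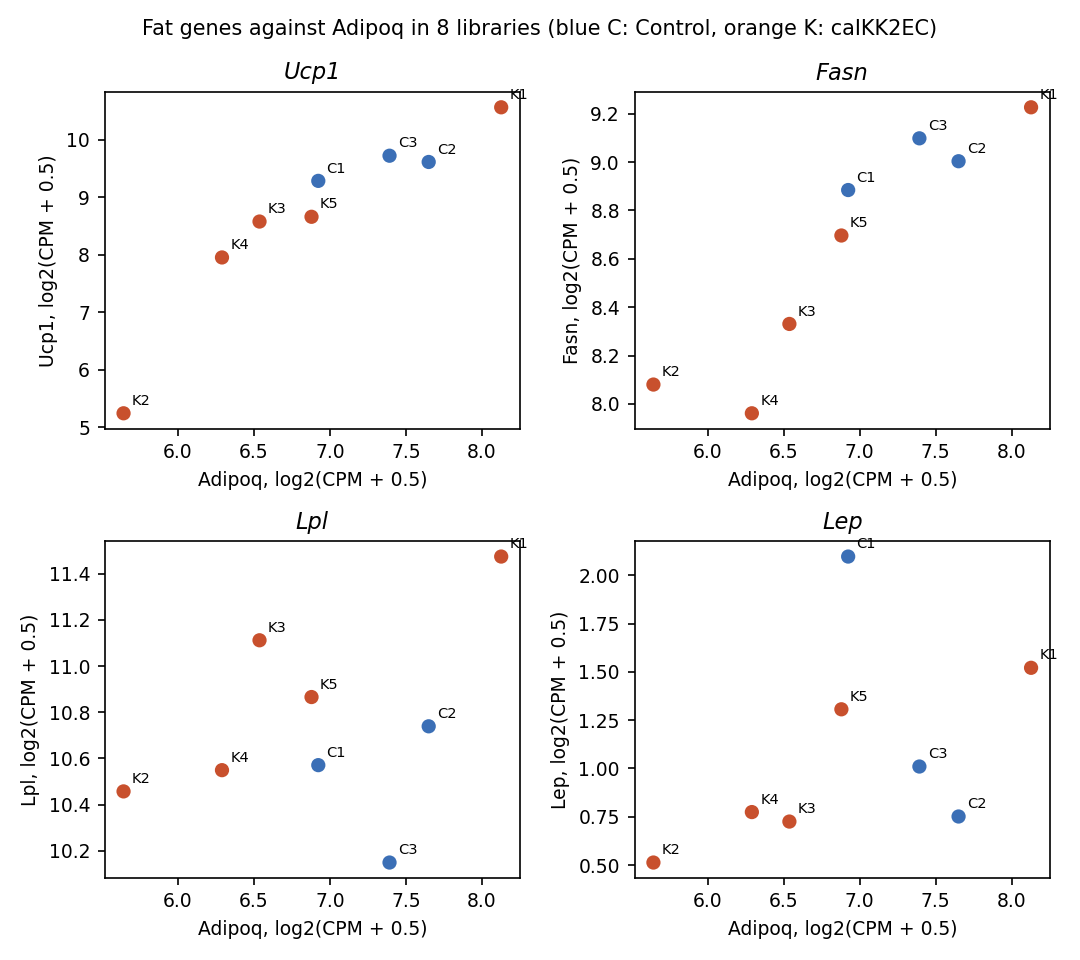
Level of Ucp1, Fasn, Lpl and Lep (y axes) against Adipoq (x axes), both as log2(CPM + 0.5), in the 8 libraries (C for Control, K for caIKK2EC). Ucp1 and Fasn rank with Adipoq (rho = 0.976 and 0.952), while Lpl and Lep are spread.

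Ratios to Adipoq within each library then gave the members relative to 1 adipocyte gene. Ucp1 over Adipoq was 5.15, 3.91 and 5.04 in the Controls. The caIKK2EC libraries, in order, were at 5.42, 0.757, 4.13, 3.18 and 3.45. caIKK2EC 2 stood far below the rest, while caIKK2EC 1, with the most of both genes, was just above the highest Control. The log2 difference between the groups was -0.71 (exact permutation p = 0.393, adjusted over 6 ratios 0.786). For Lpl the ratio was 12.6, 8.53 and 6.78 in Controls and 10.2, 28.4, 23.9, 19.3 and 15.9 in caIKK2EC libraries. Here caIKK2EC 2 to 5 lay above all Controls and caIKK2EC 1 lay among them. The log2 difference for Lpl was 1.03 (exact permutation p = 0.0714, adjusted 0.429), the largest of the 6. Fabp4 had a log2 difference of 0.36 (exact permutation p = 0.161, adjusted 0.482). Pnpla2, Fasn and Lep had differences of -0.08, 0.09 and 0.31, with exact permutation p-values of 0.679, 0.804 and 0.589.

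**Figure D5:**
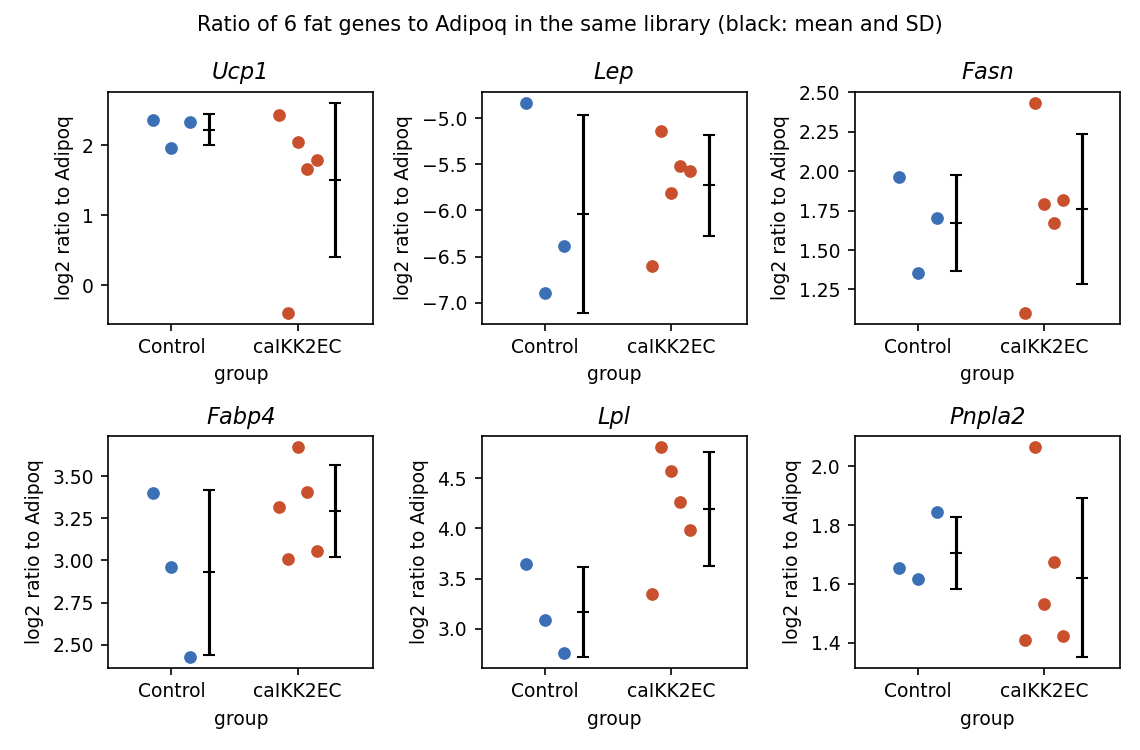
Log2 ratio of 6 members to Adipoq in the same library, with 0.5 CPM added to both (y axes), by group (x axes, 3 Control and 5 caIKK2EC libraries). Points are libraries and black marks the mean and SD. Lpl lies above all Controls in 4 of 5 caIKK2EC libraries, and 1 caIKK2EC library is far below in Ucp1.

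The same question was asked of all members with a fit that used the mean log2 CPM of 10 adipocyte genes outside the set as a covariate. This covariate was 4.75 to 5.63 in lane 7 and 3.47 to 4.57 in lane 8, with no overlap. The fit therefore also takes up part of any lane difference, and does not isolate genotype at equal fat. The median log2 fold change of the members in this fit was -0.15, against -0.46 without the covariate and -0.02 over all genes with it. No member passed after adjustment, where 0% of all genes did. At an unadjusted p under 0.05, 6 members were higher and 4 lower, against 9.01% and 9.86% of all genes. Lpl had the lowest p of the members, with a fitted value of 0.66 (SE 0.20, adjusted p 0.117 by edgeR). The other 5 on the higher side were Retn (0.89), Ppargc1a (0.76), Dio2 (0.56), Car3 (0.43) and Pparg (0.32). On the lower side were Dgat2 (-0.85), Prdm16 (-0.66), Plin4 (-0.51) and Me1 (-0.38). Adipoq itself was at 0.00 and Lipe at 0.01 in this fit, while Ucp1 was at -0.15.

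Genes of the same pathways outside the set were counted in the same way. None of the 47 tested passed in edgeR, and 3 were lower and 1 higher at an unadjusted p under 0.05, where 7.47% and 9.66% of all genes were. Of 10 other adipocyte genes 8 had a fitted value below 0, with a median of -0.43. Cfd, the adipsin gene, was at 314.7, 468 and 359 CPM in Controls and 865, 287, 363, 259 and 438 CPM in caIKK2EC libraries, and Cebpa, a transcription factor of adipocytes, had a fitted change of 0.26 (SE 0.18, adjusted p 0.494 by edgeR). Of 17 other brown and beige fat genes 14 were below 0, with a median of -0.38. Among these Pdk4, which spares glucose for fat oxidation, had a log2 fold change of -0.39 (SE 0.65, adjusted p 0.804 by edgeR), and Kcnk3, a potassium channel gene of brown fat, -0.26 (SE 0.46, adjusted p 0.823 by edgeR). Tmem26, a beige adipocyte marker, was the 1 gene of the 3 lists that DESeq2 called, where DESeq2 called 4.49% of all genes higher and 1.47% lower. Tmem26 was higher in caIKK2EC at a log2 fold change of 0.58 (DESeq2 adjusted p = 0.0473), and edgeR did not call it (adjusted p = 0.159). It was at 19.7 CPM in caIKK2EC 1 and 19.3 CPM in caIKK2EC 2, the libraries with the most and the least fat RNA. Cited1 and Tbx1 of the same list had log2 fold changes of -0.68 and -0.19. Of 20 genes of lipid storage and release 16 were below 0, with a median of -0.30. The most abundant of these, the caveolin gene Cav1, had a log2 fold change of -0.33 (SE 0.15, adjusted p 0.313 by edgeR), and the fatty acid transporter gene Cd36 -0.17 (SE 0.35, adjusted p 0.855 by edgeR). Without caIKK2EC 1, 22 genes of the 3 lists were lower at an unadjusted p under 0.05, against 8.56% of all genes.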

How the data were processed

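Poly(A) RNA of whole aorta was sequenced in 8 libraries as single reads of 50 nt from directional libraries, per the labels' protocols. The deposited table holds raw counts per gene symbol. FastQC 0.11.5, STAR 2.7.0e, DESeq2 1.22.2 and GRCm38 are named in the submitters' processing notes. No label names the counting program, annotation or strand setting, so overlapping and near-identical genes may share reads. A second table deposited by the authors gives their log2 fold changes and p-values. Differences were tested with edgeR 4.0.16 (R 4.3.3; TMM, default filter by group, 14679 genes kept, robust quasi-likelihood fit, group as the only term) with Benjamini-Hochberg adjustment over all genes. SEs were derived from the F statistic. DESeq2 1.42.0 on the same genes was an alternative, next to other scaling, no filter, lane, age, sex, fat level, replicate block and leaving out each library. Permutation tests were exact and two-sided over 56 splits on log2(CPM + 0.5), with a smallest p of 0.0179. Levels per kilobase use all exons of all transcripts in GENCODE M21 joined, which can be longer than the main transcript. Promoters come from RefSeq, in which 16 letter patterns were searched and 4 are given. The fits were tested on simulated data with 200 changed genes. False calls made up 4 of 137 in edgeR and 34 of 184 in DESeq2. Among genes changed 2-fold, edgeR called 47% and DESeq2 61%. For genes changed 4-fold, these shares were 86% and 89%. A count of 0 calls in edgeR therefore does not show that 2-fold changes were absent. Members, gene lists and tests were chosen with earlier results of these data known. Values in every library were fixed for Ucp1, Adipoq, Lep, Plin1, the 2 most abundant members per role, and members that passed or whose groups did not overlap. All other members described in full were added after their values were seen. Of the other lists, the 2 most abundant genes were named where none passed, and Tmem26, Cited1 and Tbx1 were added later. Trarg1 and Gk were not found in the count table. Replicate numbers were not taken as pairs.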

Additional observations from a re-analysis of the deposited data

Results flagged for a closer look

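Among caIKK2EC libraries, 61 levels, ratios and list sums were searched for a library far from the other 4, and chance flags about 1 in 20. Prdm16 was flagged because caIKK2EC 1 was at 37.9 CPM with the next library at 52.8 CPM, a gap of 0.836 of the whole range on the log2 scale. The ratio of Ucp1 to Adipoq was flagged because caIKK2EC 2 was at 0.757 with the next at 3.18, a gap of 0.727 of the range. Summed striated muscle markers were flagged because caIKK2EC 1 was at 1355 CPM with the next at 159 CPM, a gap of 0.728 of the range.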

How the results depend on the processing

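The count of 0 members called held in all 16 alternatives, DESeq2 included. DESeq2, other scaling, no filter, females alone and the replicate block left the direction of all 37 tested members as it was. The median was -0.57 with the replicate block, against -0.46, and 3 members were lower at an unadjusted p under 0.05 in both. Same-numbered libraries deviated together with r of 0.335, 0.099 and 0.097. Control 1 and 2 correlated best with their own number, and Control 3 with caIKK2EC 4 (r = 0.18). The numbers were not taken as pairs, and whether they are pairs was not tested. With the block, 0 other fat genes were higher at that level. Over all genes 875 were called in DESeq2, 661 with age as a covariate and 359 without caIKK2EC 2, against 0. Other settings moved values, and the cause was not tested. With lane as a covariate the median was 0.64 for members and 0.45 for other fat genes, with 9 members higher and 1 lower and 8 other genes higher and 0 lower at an unadjusted p under 0.05. The members that turned above 0 were Ucp1 at 1.01, Cidea at 0.50, Cox8b at 0.57, Cox7a1 at 0.43, Cpt1b at 1.04, Ppara at 0.48, Otop1 at 0.48, Slc36a2 at 0.69, Adipoq at 0.78, Lep at 0.13, Pparg at 0.85, Car3 at 1.14, Adrb3 at 0.60, Plin1 at 0.66, Plin5 at 0.54, Cidec at 1.20, Fabp4 at 1.16, Lipe at 0.83, Pnpla2 at 0.48, Dgat1 at 0.64, Dgat2 at 0.0775, Agpat2 at 0.63, Acsl1 at 0.87, Pck1 at 1.01, Gpd1 at 0.79, Aqp7 at 0.87, Fasn at 0.23 and Scd1 at 0.60. In lane 7 alone the median was 0.69, and caIKK2EC 2 to 5 against Controls gave -0.86, both chosen after seeing the data. With fat level as a covariate 6 members and 5 other genes were higher, and Adipoq turned to 0.00056, Pparg to 0.32, Car3 to 0.43, Cidec to 0.31, Fabp4 to 0.39, Lipe to 0.0133, Acsl1 to 0.11, Pck1 to 0.0275 and Scd1 to 0.0344. With age 3 members were higher and 3 lower, where 11.5% and 10.6% of all genes were, 2 other genes were higher and 5 lower, and Pparg turned to 0.13, Car3 to 0.10 and Fabp4 to 0.14. Among females 1 member was lower at an unadjusted p under 0.05, and the share of all genes was not computed for that fit. In DESeq2 1 other gene was called higher, where 4.49% of all genes were. At an unadjusted p under 0.05 in DESeq2, 2 other genes were higher and 5 lower, against 11% and 8.19% of all genes. With Plin1 as reference the log2 difference between the groups in the Pnpla2 ratio was 0.12. Without the 2 libraries farthest in Adipoq, its r was -0.36 with Lpl and 0.76 with smooth muscle.

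Leaving out each library gave 1 (without Control 3) to 26 (without caIKK2EC 1) members lower at an unadjusted p under 0.05, 1 to 3 other genes higher (3 without caIKK2EC 2) and 1 (without caIKK2EC 4 or 5) to 22 (without caIKK2EC 1) lower. Without caIKK2EC 1, 9.54% of all genes were higher and 8.56% lower at that level. For the other libraries left out these shares were not computed, so their counts cannot be set against all genes. Log2 fold changes ranged from -0.43 to 0.74 for Ppargc1a, -0.77 to 0.20 for Lep, -0.33 to 0.18 for Pparg, -0.55 to 0.36 for Car3, -0.78 to 0.18 for Cidec and -0.55 to 0.21 for Fabp4. The log2 difference between the groups in the ratio to Adipoq ranged from -0.12 to 0.91 for Lep and from -0.0784 to 0.26 for Fasn. Depth limits Elovl3, Cpt1b and Lep, whose counts were at most 30, 162 and 102.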
